A study of Homo sapiens with 2 samples.

Results

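The long arm of chromosome 10 from 10q24 to the telomere was examined in HCT116, an established human colorectal carcinoma cell line whose known karyotype carries an additional copy of material from this arm. All anchors on chromosome 10 with a start at or above 97 Mb were taken, which gave 3841 of the 250223 anchors of the series, together with every pair whose anchors both lay there. The first of these anchors started at position 97003305 and the last ended at position 135340057 (hg19). The comparison sets were the other 8129 anchors of chromosome 10 and the 235286 anchors of the other autosomes. The choice used position alone and no measured value.

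In HiChIP, chromatin is cut with a restriction enzyme, nearby ends are ligated, and the ligated fragments are enriched with an antibody. The antibody here recognised H3K27ac, the acetylation of histone H3 that marks active enhancers and promoters, so a count joins 2 pieces of chromatin that met in the nucleus and of which at least 1 carried the mark. The number of such counts on an anchor depends on the acetylation there, on the contacts it makes and on how many copies of the DNA the cell holds. Along a chromosome, contacts fall steeply with distance, and at distances of many megabases active and inactive stretches tend to meet their own kind.

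The study profiled enhancers that are active in colorectal cancer and used HiChIP of HCT116 to find the DNA they contact. The data were 2 replicates of 1 condition, HCT116 cells grown in culture with no treatment named, digested with MboI and precipitated with an H3K27ac antibody. Nothing in the labels says whether the replicates came from separate cultures, so the spread between them may be technical, and no condition was compared with another. Replicate 1 held 1885481 raw counts, 43037 of them within the 10q segment, and replicate 2 held 2131466, with 48200 in the segment.

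The cell type was checked at the start sites of marker genes. Among the epithelial markers, the keratin genes KRT8 (54 and 63 counts in replicates 1 and 2), KRT19 (49 and 63) and KRT18 (28 and 25) had anchors over their start sites, EPCAM had 10 and 18 counts, and the start site of CDH1 lay in no anchor. Among markers of other cell types, PTPRC had 15 and 16 counts and NEUROD1 had 12 and 8, near the level of EPCAM, the start sites of COL1A1, ALB and MYOD1 lay in no anchor, and PECAM1 was not matched by name in the annotation.

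Of the 10 strongest loops over 100 kb in the segment, 5 joined the body of VTI1A, which encodes a SNARE protein of vesicle transport, to the promoter of TCF7L2, the transcription factor through which WNT signals and β-catenin act in intestinal cells. A stretch of the sequence of 3 VTI1A anchors and of the TCF7L2 anchor is shown because every count in these tables starts from the enzyme's recognition site, and capitals mark each GATC. Each stretch has 200 bases, runs 5′ to 3′ on the plus strand of GRCh37 (hg19), is centred on the site nearest to the middle of its anchor that leaves no exon in the stretch, and lies in an intron. Anchor A (chr10:114274272-114281082) is shown at chr10:114277541-114277740, anchor B (chr10:114290599-114302960), which holds exon 5 of VTI1A, at chr10:114296678-114296877, anchor C (chr10:114230716-114242893) at chr10:114236625-114236824, and the anchor with the TCF7L2 start site (chr10:114705414-114720510) at chr10:114712781-114712980.
VTI1A intron anchor A: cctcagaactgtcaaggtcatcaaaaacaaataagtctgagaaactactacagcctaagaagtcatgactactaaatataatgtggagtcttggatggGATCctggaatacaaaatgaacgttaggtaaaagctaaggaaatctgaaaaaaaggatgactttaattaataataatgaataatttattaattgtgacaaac
VTI1A exon 5 anchor B: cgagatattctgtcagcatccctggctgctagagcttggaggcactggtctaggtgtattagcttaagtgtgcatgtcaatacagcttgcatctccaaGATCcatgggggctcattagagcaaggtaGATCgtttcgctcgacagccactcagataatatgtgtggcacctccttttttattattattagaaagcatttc
VTI1A intron anchor C: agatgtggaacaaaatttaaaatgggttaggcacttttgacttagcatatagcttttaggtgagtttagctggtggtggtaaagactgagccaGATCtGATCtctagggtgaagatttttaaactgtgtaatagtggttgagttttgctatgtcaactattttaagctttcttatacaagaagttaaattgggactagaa
TCF7L2 promoter anchor: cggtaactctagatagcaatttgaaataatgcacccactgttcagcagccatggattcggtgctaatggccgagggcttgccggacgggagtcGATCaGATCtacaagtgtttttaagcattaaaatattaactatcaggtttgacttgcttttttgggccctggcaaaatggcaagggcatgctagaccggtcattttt

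The whole anchors held 18 GATC sites in anchor A, 30 in B, 29 in C and 27 in the TCF7L2 anchor, or between 1.79 and 2.64 per kb, and all anchors of the segment together held 2.30 per kb. Of 3841 windows of 200 bases about the midpoints of the segment's anchors, 53.5% held a GATC. The letters CTTTGAT, the core to which TCF7L2 is known to bind, were counted on both strands. They occurred 2 times in anchor A, 4 times in B, 3 times in C and 3 times in the TCF7L2 anchor, and 0.164 times per kb over all anchors of the segment. None of the 4 stretches printed holds them, and 3.10% of the 3841 windows do. These matches describe the letters and nothing was measured about binding.

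The anchors of the 10q segment carried more contacts than those of the rest of the genome. With all contacts up to 2 Mb counted, the mean depth per anchor was 15.1 in replicate 1 and 17.3 in replicate 2 in the segment, 9.08 and 10.4 on the rest of chromosome 10, and 9.50 and 10.96 on the other autosomes. The ratio of the segment to the rest of chromosome 10 was 1.67 in each replicate (95% intervals 1.64 to 1.69 for both, from counting error only) and 1.59 ± 0.012 (SD, n = 2) to the other autosomes. The number of DNA copies and the contacts made per copy cannot be told apart in these counts, because no DNA control was used here. The median anchor of the segment had 13 counts per replicate, against 8 and 8.5 in the 2 comparison sets, so the difference was not limited to the highest anchors. The highest 38 anchors held 6.41% and 6.64% of the segment's depth, and the mean without them was 14.3 and 16.3.

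Contacts of an anchor with itself, which measure local signal more than looping, gave a similar ratio. Their mean was 1.80 and 1.84 counts per anchor in the segment and 1.16 and 1.13 on the rest of chromosome 10, a ratio of 1.59 ± 0.052 (SD, n = 2). Contacts over 2 Mb, with any partner on chromosome 10, gave 4.95 and 5.67 counts per anchor in the segment and 3.01 and 3.52 on the rest of the chromosome. The segment had more anchors per Mb than the rest of chromosome 10 (99.7 against 83.8), a larger share of anchors within 2.5 kb of a protein-coding start site (7.003% against 4.761%) and a higher median GC content (43.4% against 41.2%), while MboI sites were as dense (2.30 against 2.29 per kb). Within 10 classes of anchor width and promoter overlap the ratio to the rest of chromosome 10 lay between 1.36 and 2.06, and weighted over these classes it was 1.61 ± 0.0013 (SD, n = 2). The part of GC content in the ratio was not tested.

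Higher depth did not cover the whole segment. When the depth of 1 Mb windows along chromosome 10 was divided into 3 stretches, the steps lay at 101 Mb and 130 Mb with the replicates summed and with each replicate alone. With 2 Mb windows they lay at 100 and 128 Mb, and with same-anchor counts at 101 and 128 Mb. The 489 anchors before the first step had 9.98 and 11.7 counts, a ratio to the rest of chromosome 10 of 1.11 ± 0.018 (SD, n = 2). The 3153 anchors between the steps had 16.5 and 18.8 counts, a ratio of 1.82 ± 0.0038. The 199 anchors after the second step had 5.61 and 6.52 counts, a ratio of 0.624 ± 0.0075. The stretch from about 101 to 130 Mb was thus the one of higher depth, and the name 10q24 to 10q26 covers 4 Mb before it and the chromosome end after it that did not share it. These 3 stretches were chosen from the values, so their ratios are a description without a test.

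**Figure D1:**
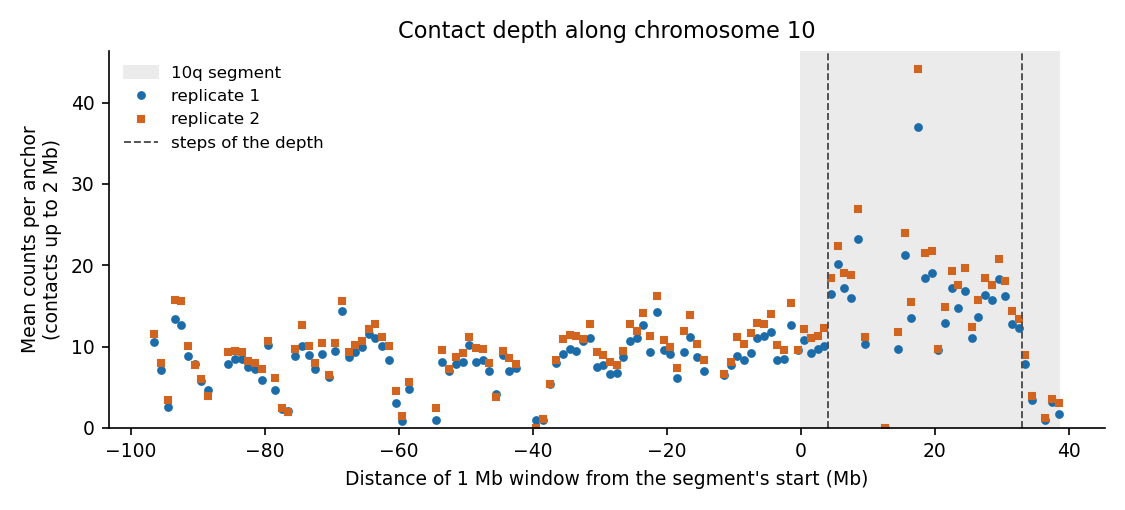
Mean counts per anchor from contacts up to 2 Mb (vertical axis) in 1 Mb windows along chromosome 10, by distance from the start of the segment in Mb (horizontal axis), with circles for replicate 1, squares for replicate 2, grey shading for the segment and dashed lines for the 2 steps. Both replicates step up 4 Mb into the segment and down 33 Mb into it, and 1 window, 17 Mb into the segment, stands above all others.

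At a finer scale, the 250 kb window starting at 100 Mb had 13.6 and 15.9 counts per anchor, the 3 after it between 7.56 and 12.1 over both replicates, the window starting at 101 Mb had 11.3 and 13.2, and the next had 17.1 and 18.4. Between the steps depth was uneven. Of 25 windows of 1 Mb with at least 20 anchors, 16 exceeded the highest window of the rest of chromosome 10, which had 15.2 counts. The lowest, from 117 Mb, had 9.54 and 9.64 counts and the highest, from 114 Mb, had 37.0 and 44.2, which placed it 3rd of 2375 autosomal windows. The windows starting at 105 Mb (23.2 and 26.9 counts), 112 Mb (21.3 and 23.95) and 102 Mb (20.1 and 22.3) followed. Without the window from 114 Mb, a comparison added after its depth was seen, the ratio of the segment to the rest of chromosome 10 was 1.58. The windows starting at 107, 108, 110 and 132 Mb held no anchor.

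The long arms of chromosome 8 from 66 Mb and of chromosome 17 from 38 Mb, which also had high depth, served for comparison. Over the other autosomes without both of them, the mean depth ratio was 1.65 ± 0.012 for the 10q segment, 1.604 ± 0.0059 for 8q and 1.91 ± 0.0095 for 17q (SD, n = 2 each). For same-anchor contacts the same ratios were 1.56 ± 0.028, 1.35 ± 0.0035 and 2.05 ± 0.031. The 10q segment thus lay near 8q for contacts between anchors and between the other 2 for same-anchor contacts, and with 2 replicates these differences were not tested.

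The distance decay of the segment ran above that of the other autosomes at nearly every distance, and most of all between 5 and 25 Mb. Counts per anchor pair were compared within distance classes, without regard to the depth of the anchors. Up to 100 kb the segment had 14652 and 16585 counts where the rate of the other autosomes gives 9998 and 11470, a ratio of 1.46 ± 0.014 (SD, n = 2). From 100 kb to 2 Mb the ratio was 1.37 ± 0.008. Over 2 Mb the segment had 7168 and 8049 counts where 3740 and 4296 were expected, a ratio of 1.89 ± 0.030. By distance class, the rest of chromosome 10 gave 0.961 ± 0.001, 0.986 ± 0.013 and 1.00 ± 0.0015 for the same 3 ranges. With a weight for each 1 Mb window in the expectation as well, the segment's window pairs held 13798 counts where 13320 were expected (ratio 1.04). Pairs of the segment with the rest of the chromosome held 10260 where 11210 were expected. The weights were fitted to these same counts, so that each window's observed and expected sums match. A ratio near 1 is thus largely set by the fit and does not show the part of depth in the 1.89.

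**Figure D2:**
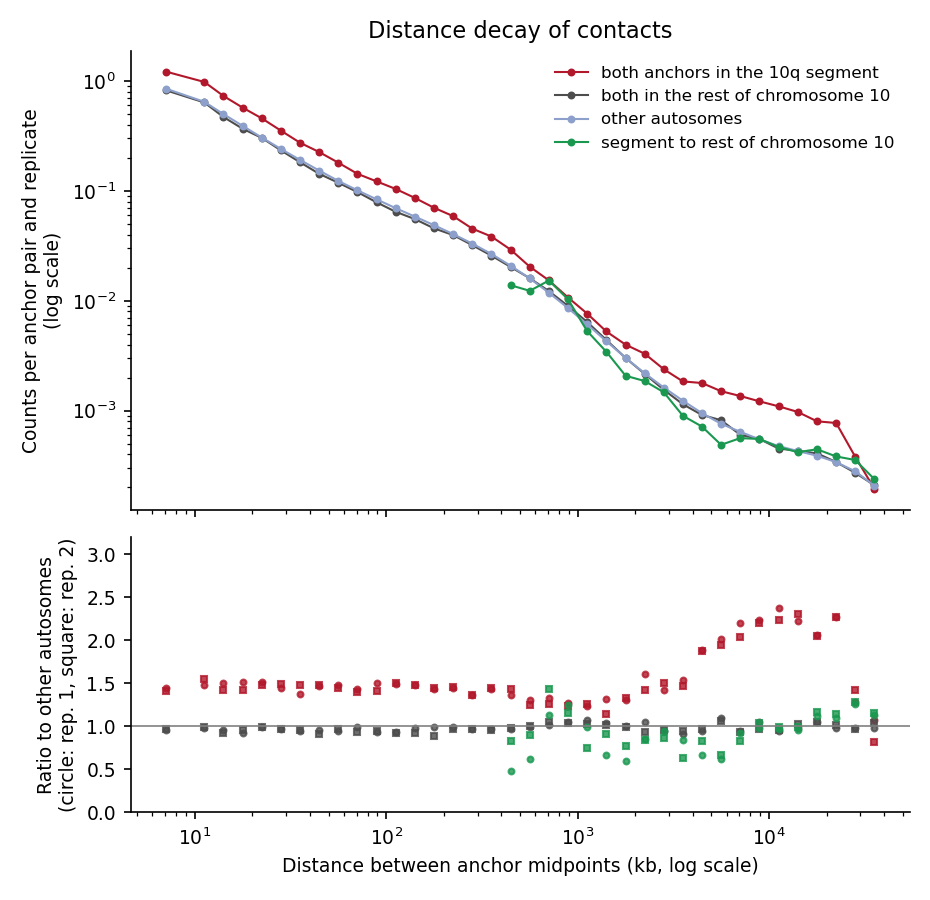
Counts per anchor pair and replicate (upper panel, log scale) and their ratio to the other autosomes (lower panel, circles for replicate 1 and squares for replicate 2) against the distance between anchor midpoints in kb (log scale). Pairs within the segment lie at a ratio of 1.14 to 1.61 up to 4 Mb and near or above 2 from 5 to 25 Mb, while pairs within the rest of chromosome 10 stay near 1.

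The ratio changed with distance. Up to 25 Mb the mean of the replicates was lowest from 1.26 to 1.58 Mb, where replicate 1 had 1.32 and replicate 2 had 1.14, and highest from 10.0 to 12.6 Mb, with 2.38 and 2.24. Neither class was the extreme in both replicates. From 20 to 25.1 Mb it was 2.28 and 2.27, from 25.1 to 31.6 Mb it was 1.29 and 1.42, and from 31.6 to 39.8 Mb, where 18 and 16 counts were found, it was 1.08 and 0.816. No excess common to both replicates was left in the last class. Its pairs span more than the 29 Mb between the 2 steps, so each had an anchor outside that stretch, where depth was lower. The part of that lower depth in the ratio was not tested. Pairs with both anchors between the steps had 2.16 ± 0.031 times the counts of other autosomes over 2 Mb, and 2.76 ± 0.063 times over 20 Mb (SD, n = 2 each). Pairs that joined the segment to the rest of chromosome 10 over 2 Mb had 1.13 ± 0.026 times, and only 0.801 ± 0.014 times from 2 to 5 Mb. The 8q stretch reached 1.54 ± 0.0038 and the 17q stretch 1.23 ± 0.0046 over 2 Mb, both below the 10q segment. The stretches differ in length, so these ratios cover different distances, and their differences were not tested. Per anchor, with any partner on the chromosome, the order was another. Over the other autosomes without 8q and 17q, counts over 2 Mb were 1.59 ± 0.016 times for the 10q segment. They were 1.64 ± 0.012 times for 8q and 1.13 ± 0.0065 times for 17q (SD, n = 2 each).

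Contacts over 2 Mb were then compared between windows of 1 Mb with this weighted expectation. The expectation used distance and each window's own counts over 2 Mb, so that richness in counts alone does not make a window stand out. Within the segment, 26 of 440 window pairs (5.91%) exceeded it at an adjusted p under 0.05 (one-sided exact Poisson test with Benjamini-Hochberg adjustment over 155214 autosomal pairs), against 0.65% of all autosomal pairs. All 26 were above their expectation in both replicates, but so were 1004 of the 1009 pairs called over all autosomes. The calls used the sum of the replicates, so this is no separate check. With replicate 1 left out 7 of the 440 were called, against 0.171% of all autosomal pairs. With replicate 2 left out 6 were called, against 0.155%. Over all tested pairs, the observed counts of the segment were 0.821 times the expected at 3 to 4 Mb and 1.26 times at 20 to 28 Mb. Of 2589 pairs that joined the segment to the rest of the chromosome, 8 (0.309%) were called. The segment's share rose with distance to 10.0% of pairs 20 to 28 Mb apart, where 0.545% were called on the other autosomes. At 3 to 4 Mb it was 1 of 50, where 6.16% were called elsewhere. None of 30 pairs 29 to 40 Mb apart was called, against 0.494% elsewhere, and 30 pairs are too few to compare with that share. At a given ratio, a larger expected count makes a call likelier. Expected counts were 13320 over the 440 pairs of the segment and 754100 over 149086 pairs of the other autosomes. At 20 to 28 Mb they were 1369 over 90 pairs and 99450 over 13947 pairs. The shares called alone therefore do not measure a difference in contacts.

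The 5 pairs of lowest p follow, with the counts of each replicate, whose sum was tested. The windows from 113 and 117 Mb shared 35 and 39 counts where 12.7 and 12.03 were expected, 3 times in the sum (adjusted p = 4.55e-12, exact Poisson test). The windows from 106 and 129 Mb, 23 Mb apart, shared 25 and 29 counts where 8.95 and 8.87 were expected (adjusted p = 1.09e-08, exact Poisson test). The windows from 102 and 126 Mb shared 32 and 27 counts against 10.0 and 12.5 (adjusted p = 2.53e-07, exact Poisson test). The windows from 105 and 126 Mb shared 42 and 49 counts against 21.9 and 24.9 (adjusted p = 8.74e-06, exact Poisson test). The windows from 117 and 128 Mb shared 19 and 19 counts against 6.10 and 6.97 (adjusted p = 1.87e-05, exact Poisson test).

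The 26 called pairs fell into 2 groups of windows that shared no called pair. The first group held 9 windows, starting at 100, 106, 111, 113, 117, 122, 128, 129 and 130 Mb, and was joined by 16 called pairs. Its windows had 0 to 5 protein-coding start sites each (median 3) and 8.42 to 14.5 counts per anchor. The second held 9 windows, starting at 101, 102, 103, 104, 105, 114, 120, 121 and 126 Mb, joined by 10 called pairs, with 5 to 20 start sites (median 13) and 16.1 to 40.6 counts per anchor. Of the tested pairs inside a group, 32 of 32 in the first and 20 of 28 in the second exceeded their expectation, while 18 of 73 pairs between the groups did so and the summed counts between them were 0.752 times the expected. The groups were read from the calls, so these shares are a description. Start sites and depth differed between the groups without overlap except at 5 start sites, and the part of either in the contacts was not tested.

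**Figure D3:**
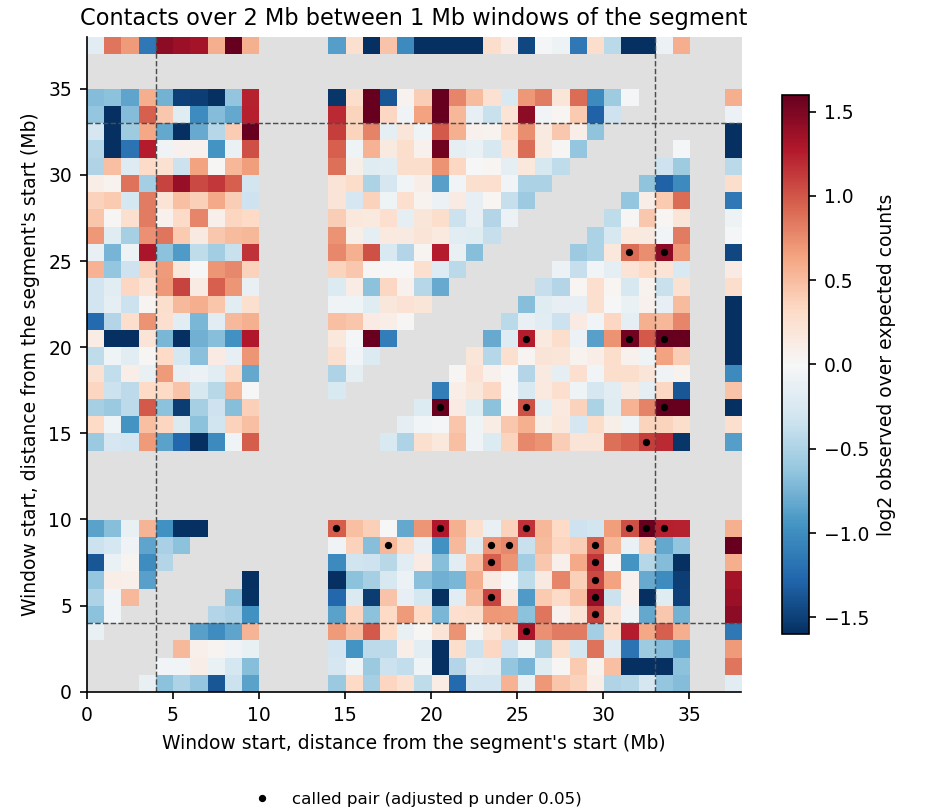
Observed over expected counts (log2, colour) of each pair of 1 Mb windows of the segment that lie over 2 Mb apart, with both axes giving the window's distance from the start of the segment in Mb, dots for called pairs (drawn below the diagonal), dashed lines for the 2 steps and grey for pairs not tested. The called pairs include a column 29 Mb into the segment, the window from 126 Mb, with 5 called partners from 101 to 105 Mb.

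Contacts between the 2 ends of the stretch of higher depth exceeded their expectation, mainly through 1 window. The first 5 Mb (101 to 106 Mb) and the last 5 Mb (125 to 130 Mb) shared 348 and 401 counts. From distance and window weight 253 and 297 were expected, a ratio of 1.38 and 1.35. The window from 126 Mb held 310 of these 749 counts where 145 were expected, and the other 4 windows of the last 5 Mb had a ratio of 1.08 in the sum. The 5 Mb before the first step shared 274 counts in all with the last 5 Mb where 262 were expected (ratio 1.04, 95% Poisson interval 0.924 to 1.18), and the 5 Mb before those had a ratio of 0.784. The first 5 Mb and the 5 Mb after the second step had a ratio of 0.936 (0.739 to 1.17). Among 310 pairs of 5 Mb blocks at the same distance on other autosomes, the median ratio was 0.998 and 15 were at least as high as that of the 2 ends. Ratios as high were found away from the ends. They were 1.35 between the first 5 Mb and the block from 120 to 125 Mb and 1.57 (1.33 to 1.83) between the second 5 Mb and the last. In the second 5 Mb only 1 window, from 106 Mb, had enough anchors to be tested. The window from 100 Mb, before the first step, had a ratio of 1.40 with the last 5 Mb. By single windows the first 5 Mb had their highest ratio with the window from 126 Mb (2.28 and 2.03 in replicates 1 and 2) and ratios under 1 with those from 122, 128, 129 and 130 Mb.

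Loops, meaning pairs of different anchors up to 2 Mb apart, numbered 23489 in replicate 1 and 26309 in replicate 2 within the segment, with median lengths of 149 and 155 kb. Of these, 5556 were found in both replicates, 23.7% and 21.1% of each, against 19.7% and 17.3% on the other autosomes. Most of the 44242 loops of either replicate rested on 1 count (80.2%). Loops with at least 5 summed counts made up 1056 of 44242 (2.39%, exact binomial 95% interval 2.25 to 2.53), against 1.47% of all autosomal loops and 1.33% on the rest of chromosome 10. Over 100 kb, 62 of 27879 loops of the segment (0.222%) reached 5 counts, against 0.0855% of all autosomal loops, and 30 of the 62 had both anchors in the window from 114 Mb. Shares of loops over a fixed count rise with depth, and the depth of the segment is given above.

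The 10 strongest loops over 20 kb lay in 3 places. For 7 of them the 95% interval of observed over expected, with distance and anchor depth in the expectation, held 1, and for 3 it lay above 1. The 10 loops were chosen by these same counts, so their ratios lean upward and the intervals do not test them. By place, 7 had both anchors in the window from 114 Mb, within VTI1A or from ACSL5, the gene of a long-chain acyl-CoA synthetase, to VTI1A. The strongest joined chr10:114244817-114254574 and anchor A, both in introns of VTI1A and 27.98 kb apart, with 18 and 22 counts. It was 1.49 times (95% interval 1.06 to 2.02) the count expected from its distance and the depth of its anchors, and 79.5 times that from distance alone. The next 2 joined that same anchor to anchor B (13 and 13 counts, 1.28 times the expected, 0.837 to 1.88) and chr10:114264452-114270837 to anchor B (9 and 13, 1.31 times, 0.819 to 1.98). The longest of the 10 joined an ACSL5 intron (chr10:114139115-114143728) to anchor B over 155 kb, with 10 and 9 counts, 2.66 times (1.603 to 4.16) the expected. Another loop to anchor B, from anchor C, was uneven between replicates, with 5 and 16 counts (1.31 times, 0.811 to 2.00). Anchors A and C shared 7 and 11 counts, 0.910 times the expected.

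Another 2 of the 10 ended at the start site of SFR1, a gene of homologous recombination (chr10:105874640-105883269). The first came from the start site of COL17A1, a collagen of epithelial attachment, 33.6 kb away, with 12 and 9 counts, 1.89 times (1.17 to 2.89) the expected. The other came from between the genes, with 8 and 12 counts and a ratio of 1.36 (0.829 to 2.10). The remaining loop lay in SEC23IP, a gene of vesicle transport, where the start site and exons 7 to 12 shared 11 and 8 counts, 1.58 times (0.951 to 2.47) the expected. Below 20 kb the strongest loop of the segment joined chr10:114283214-114287597, with exon 4 of VTI1A, to anchor B over 11.4 kb, with 37 and 49 counts.

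Among loops over 100 kb, a ranking added after the values were seen and given without a test, 5 of the 10 strongest joined VTI1A to the TCF7L2 promoter. Anchor A shared 7 and 7 counts with it over 435 kb, 4.45 times (2.43 to 7.47) the expected. Anchor B shared 7 and 5 counts over 416 kb (2.96 times), and anchor C shared 5 and 6 over 476 kb (4.89 times). The anchor with the strongest loop above, next to C, also shared 5 and 6 counts, and the anchor with exon 4 shared 5 and 5. All 5 had similar counts in both replicates. In all, 40 of 51 anchors that overlap VTI1A had counts with the TCF7L2 promoter, 21 of them in both replicates, with 59 and 71 counts where 61.9 were expected in the sum. This sum includes the 5 loops above, which led to its choice and hold 58 of the 130 counts, and without them 72 counts stood against 47.6 expected, a ratio of 1.51. Another of the 10 joined an intron of STN1, a subunit of the telomere CST complex, to the SFR1 start site over 224 kb, with 6 and 11 counts, 3.74 times (2.18 to 5.98) the expected. These 10 loops too were chosen by their counts, so their ratios lean upward.

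**Figure D4:**
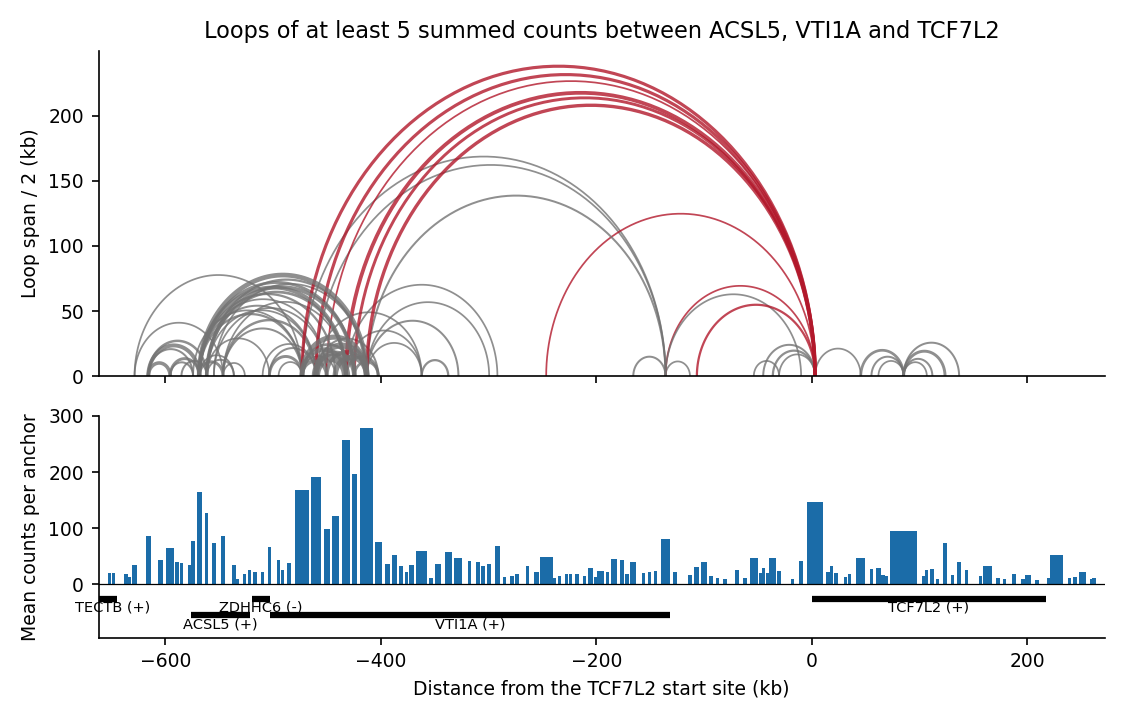
Loops over 20 kb with at least 5 summed counts as arcs (upper panel, height as the radius of the loop in kb, thicker for more counts, red for loops to the TCF7L2 start site from over 100 kb upstream) and the mean counts per anchor over the replicates (lower panel, genes below), against the distance from the TCF7L2 start site in kb. Of the 9 red arcs, the 6 tallest run from the deep anchors of VTI1A to the TCF7L2 start site, the strongest with 14 summed counts, and the tallest bars are the VTI1A anchors with up to 279 counts.

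The deepest anchors of the segment were those of the same loci. Anchor B had 225 and 332 counts and ranked 6th of all autosomal anchors, with 149 partner anchors in the segment. Anchor A had 228 and 285 counts and ranked 11th. The anchor with exon 4 of VTI1A had 174 and 220 counts, and anchor C had 140 and 198. An ACSL5 intron followed (147 and 182), then the TCF7L2 anchor (137 and 156), an STN1 intron (119 and 147) and the SFR1 start site (125 and 136). Their same-anchor counts were 61 and 76 for B, 29 and 43 for A and 28 and 31 for the TCF7L2 anchor.

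Single pairs over 2 Mb had few counts. Of 15135 such pairs within the segment, 9 had 3 counts or more. The highest joined an intergenic anchor before DUSP5 (chr10:112167637-112176995) to anchor B over 2.12 Mb, with 3 and 3 counts. The next 3 also joined the stretch before DUSP5, or chr10:112152434-112160654 beside it, to VTI1A anchors, with 4 counts each, and the fifth joined the STN1 intron to anchor B over 8.64 Mb with 1 and 2 counts. Of 10348 pairs from the segment to the rest of chromosome 10, none had 3 counts, which leaves no order among them. The 5 named by position, with 1 count in each replicate, ran from A1CF, ASCC1 and ANAPC16, GRID1 (2 pairs) and ADIRF to VTI1A (2 pairs), AVPI1, and the regions of EMX2 and RAB11FIP2.

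Promoters of the segment shared its depth. Of 283 protein-coding genes that start in the segment, 193 had an anchor over the start site, with a median of 24 counts, against 14.5 on the rest of chromosome 10 and 16.5 on the other autosomes. Of the 193, 95 (49.2%) exceeded 24 counts, the upper quartile of the 12271 genes with such an anchor outside the segment. Of all autosomal genes with such an anchor, 24.3% did so. An anchor over the start sites of several genes was counted for each of them. Between the steps the share was 61.5% (91 of 148 genes), before them 4 of 35, and after them 0 of 10. The steps were placed by this same depth, so the shares by stretch are only a description. The start sites of 8 lists of genes that lie in the segment were read next. They were assembled with earlier results of these data known, and their levels describe acetylated contacts at the promoter, not expression. The count of each list above the upper quartile is to be read beside the 49.2% of the whole segment. No list was tested against that share. Of 92 listed genes, 61 had an anchor over the start site, and in 38 of these replicate 2 had the higher count.

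In the WNT and hedgehog list, 7 of 8 genes had an anchor and 2 exceeded the upper quartile. TCF7L2 was the deepest promoter of the segment, with 137 and 156 counts, and its anchor made contacts with 112 partners over 20 kb. That anchor was 15097 bp wide, where the median of the segment was 2622 bp. The SFR1 promoter, in none of the lists, had 125 and 136 counts on an anchor of 8630 bp. CTBP2, a transcriptional corepressor, had 35 and 45 counts. LDB1, an adaptor that joins enhancers to promoters, had 23 and 24 counts, and FRAT1, which binds the kinase that marks β-catenin for decay, had 24 and 23. BTRC, part of the ubiquitin ligase for β-catenin, had 14 and 12 counts, FRAT2 had 8 and 6, and the start site of SUFU, a repressor of hedgehog signalling, lay in no anchor. The WNT ligand gene WNT8B had 17 and 19.

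Of the NF-kB and MAPK list, 8 of 9 genes had an anchor and 4 exceeded the upper quartile. NFKB2, a subunit of NF-kB, had 54 and 68 counts, and its strongest partner over 20 kb lay 185 kb away in an intron of SUFU, with 2 and 6 counts. CHUK, the kinase that activates NFKB2, had 20 and 28. The 3 others above the quartile were PDCD4, an inhibitor of translation (37 and 46), DUSP5, a phosphatase of ERK (32 and 50), and SHOC2, a scaffold of RAS signalling (32 and 31). The strongest partner of DUSP5 was the intergenic anchor named above, 85.1 kb away, with 3 and 3 counts. The receptor gene FGFR2 had 8 and 19 counts, below the median of 16.5 in the mean of the replicates.

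In the list of cell division, DNA repair and replication, 5 of 10 genes with an anchor exceeded the quartile. SMNDC1, a splicing factor gene, had 37 and 56 counts and DCLRE1A, a nuclease of crosslink repair, had 40 and 48. The DCLRE1A anchor also holds the start site of NHLRC2. BUB3, of the spindle checkpoint, had 42 and 26, SMC3, a cohesin subunit, had 29 and 34, and MKI67, the proliferation marker, had 20 and 31. MGMT, which removes alkyl groups from guanine and lies past the second step, had 8 and 12 counts. MCMBP, which binds the replicative helicase, had 8 and 13 although it lies between the steps.

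Metabolic enzymes had 7 of 9 above the quartile, where 49.2% of all genes of the segment with an anchor were. GPAM, which starts glycerolipid synthesis, had 68 and 75 counts. GOT1, the cytosolic aspartate aminotransferase, had 43 and 48 and shared 3 and 5 counts with the start site of SLC25A28 over 188 kb. OAT, ornithine aminotransferase, had 53 and 38, and SCD, the stearoyl-CoA desaturase, had 24 and 39. PGAM1, of glycolysis, and ALDH18A1, of proline synthesis, lie before the first step and had 23 and 17, and 15 and 12 counts. The start site of ACSL5 lay in no anchor although its intron held 1 of the deepest.

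Apoptosis and autophagy had 1 of 4 above the quartile, BAG3, a co-chaperone of autophagy (20 and 34). Trafficking and the cytoskeleton had 6 of 10, led by VTI1A (53 and 79, in an anchor that also holds the start site of ZDHHC6) and SFXN3, a serine transporter of mitochondria (38 and 52). The SFXN3 anchor also holds the start site of PDZD7. Of 6 developmental transcription factor genes with an anchor, 4 exceeded the quartile. They were EMX2 (56 and 53), PAX2 (39 and 45), LBX1 (36 and 43) and PITX3 (30 and 25). Of the genes of other tissues 7 of 19 had an anchor, where 68.2% of all protein-coding genes of the segment did, and 2 exceeded the quartile, NRAP of muscle (37 and 37) and ACADSB, an acyl-CoA dehydrogenase gene (38 and 34). The ACADSB anchor also holds the start site of IKZF5. The pancreatic lipase gene PNLIP had 14 and 16 counts and PNLIPRP1 had 18 and 5.

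**Figure D5:**
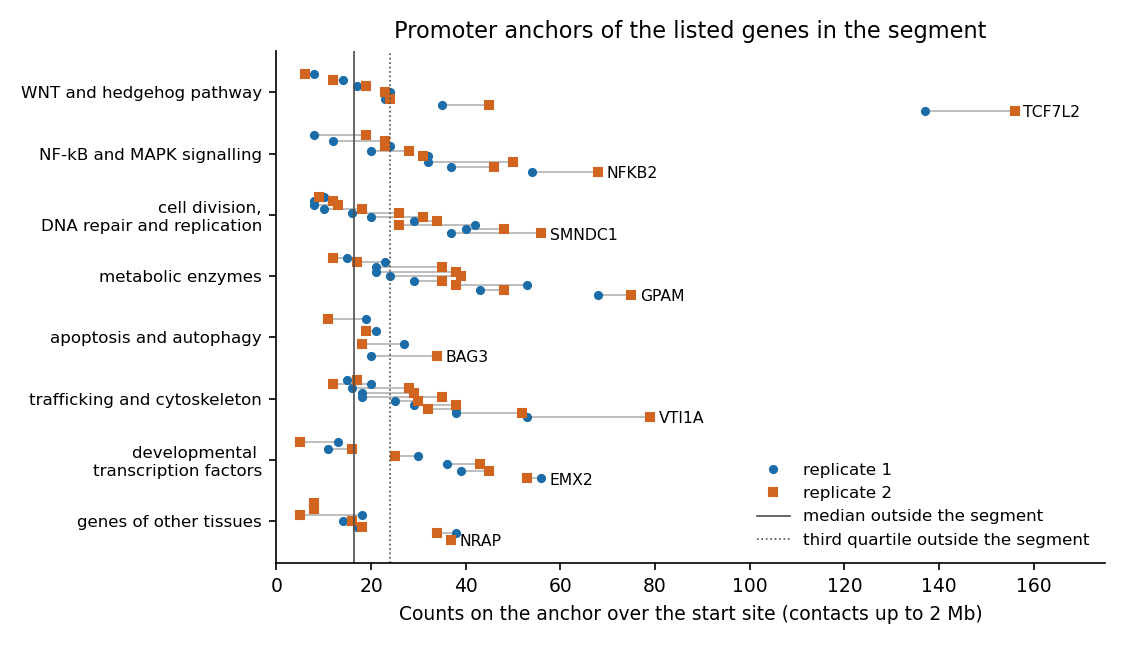
Counts on the anchor over the start site from contacts up to 2 Mb (horizontal axis) for each of 61 listed genes, grouped by list (vertical axis), with circles for replicate 1 and squares for replicate 2 joined by a line, and vertical lines at the median (16.5) and upper quartile (24) of genes with such an anchor outside the segment. The deepest gene of each list is named, and TCF7L2 at 137 and 156 counts stands apart from the other listed genes.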

How the data were processed

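The members and gene lists were chosen with earlier results of these data known. The authors digested crosslinked HCT116 chromatin with MboI, precipitated H3K27ac, obtained valid pairs with HiC-Pro and loops with hichipper, and deposited for each of 2 replicates the raw counts of read pairs that join 2 anchors of 1 chromosome. Versions, anchor settings and duplicate removal are not given in the sources used here. Positions are hg19, and anchors of 24 of 24 nuclear chromosomes ended within the GRCh37 lengths. Genes are canonical transcripts of GENCODE on GRCh37, with positions counted from 1.

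Anchor depth summed contacts up to 2 Mb, with same-anchor contacts and those over 2 Mb kept apart. Ratios are means over 2 replicates with SD, and intervals (95%, exact) cover counting error only. Distance classes were compared over all anchor pairs, with or without counts. Window pairs (1 Mb, at least 20 anchors) and loops were compared with an expectation from distance and balanced depth, and the loop's own count was left out of its anchors' depth with an offset of 0.5. Window weights were balanced on the tested counts over 2 Mb themselves. The step search, the distance decay, the window pairs and the loop expectation were checked on simulated data. The named genes are those of the lists, the 10 strongest loops over 20 kb, 5 pairs over 2 Mb within the segment and 5 to the rest of chromosome 10, and the 5 called window pairs of lowest p. An item of the lists is not reported here. Alternatives were the depth measure, reference, window size, expectation, thresholds and each replicate left out. Tests came from scipy 1.17.1, window groups from networkx 3.6.1, balancing loops from numba 0.67.0, and tables from pandas 2.3.3 on numpy 2.4.6 under Python 3.11.15.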

Additional observations from a re-analysis of the deposited data

How the results depend on the processing

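Of 57 alternatives over 11 results, 26 moved a value by no more than its replicate spread or limit, and 31 moved it further. None of the 42 alternatives of the ratios turned a direction, and all stayed above 1. The other results, a position, a count and a share, had no direction to turn. No paired analysis was possible because the study has 1 group. Depth over the rest of chromosome 10 was 1.62 per kb of anchor, 1.61 by anchor class, 1.66 as the median of windows, 1.66 with all distances and 1.65 against proximal 10q. Over the other autosomes it was 1.56 per kb, 1.56 by class, 1.62 as the median of windows and 1.65 without 8q and 17q. Same-anchor depth by class was 1.498 over the rest of chromosome 10 and 1.46 over the other autosomes, where it was 1.48 per kb. Without the window of highest depth, an alternative chosen after seeing the data, these 4 ratios were 1.576, 1.499, 1.483 and 1.408. Contacts up to 100 kb had ratios of 1.51 without 8q and 17q in the reference and 1.51 against the rest of chromosome 10, those from 100 kb to 2 Mb 1.42 and 1.39, and those over 2 Mb 1.94 without 8q and 17q. From the segment to the rest of chromosome 10 the ratio over 2 Mb was 1.07 with the rest of chromosome 10 as reference. With 2 Mb windows the steps lay at 100 and 128 Mb. Called window pairs in the segment numbered 9 of 1728 with 500 kb windows (all autosomes 0.0743%), 177 of 440 with distance alone (2.07%), and 6 to 7 of 440 when a replicate was left out (0.155% to 0.171%). Loops with at least 10 counts made up 0.368% (all autosomes 0.162%), those with at least 5 over 20 kb 0.693% (0.344%), and those with at least 5 in a single replicate 0.992% to 1.08% (0.494% to 0.596%). Depth limits single pairs over 2 Mb, which had at most 6 counts.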
